A study of Mus musculus with 17 samples.

Results

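The lysosomal genes described here are 40 genes for the enzymes, soluble binding proteins and membrane proteins of the lysosome, of which 39 were measured among 18194 genes in all. They were taken by gene symbol from a list in 5 role groups, namely 9 cysteine proteases, 4 aspartic and serine proteases, 12 glycosidases and sulfatases, 7 lipid enzymes and soluble lipid-handling proteins, and 8 membrane proteins. For each gene the probe set with the highest mean log2 signal over the 17 arrays was used, and Cd63, a tetraspanin of the lysosomal membrane, had no probe set annotated to it alone and was not analysed here.

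RNA was taken from the spinal cord of female C57BL/6 mice (C57BL/6J in the study's methods) in 3 groups of 1 array per mouse. The labels give an age of 8 weeks for the mice at the start, and the age at sampling was not given in the sources used here. The anti-RGMa group (6 mice) had targeted EAE (experimental autoimmune encephalomyelitis) and received a humanized antibody to RGMa, a membrane-anchored guidance molecule, at 10 mg/kg. The isotype control group (5 mice) had the same disease and received palivizumab at the same dose. Both EAE groups had been immunized with a myelin oligodendrocyte glycoprotein peptide, and weeks later given a dorsal laminectomy, an injection of TNF-α and IFN-γ into the thoracic cord, and pertussis toxin. The naïve group (6 mice) was untreated, so that disease, surgery, cytokines and toxin cannot be told apart in a comparison with it. Antibodies were first given 9 days after the cytokine injection (9 DPI), and a segment 4.5 mm wide around the injection site was taken at 14 DPI. The arrays were run to profile the transcripts that go with the action of the antibody on the blood-spinal cord barrier.

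Lysosomes are acidic organelles in which hydrolases break down proteins, glycans and lipids that arrive by endocytosis, phagocytosis and autophagy. Most soluble enzymes carry a mannose 6-phosphate tag that sorting receptors recognise, a proton pump (the V-ATPase) keeps the lumen acidic, and heavily glycosylated membrane proteins line the limiting membrane. In the nervous system every cell type has lysosomes, macrophages and microglia that take up myelin are rich in them, and inherited loss of many of these enzymes gives a storage disease with neural damage. Many lysosomal genes in human and mouse carry a CLEAR element in the promoter, a palindromic sequence around CACGTG that the transcription factor TFEB and its relatives bind.

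The promoters of 4 of the genes show how this element was distributed. Windows of 300 bases, from 250 before to 50 after the annotated start, were read from RefSeq (GRCm38.p6) for 34 of the 39 measured genes, and both strands were searched for TCACGTG, which is part of the CLEAR palindrome and holds the E-box CACGTG. Cln3, which encodes the membrane protein lost in a juvenile neuronal lipofuscinosis, and Ctsd, the aspartic protease cathepsin D, are shown as EAE-raised genes with the element. Mcoln1, the cation channel TRPML1, is shown as a gene with the element that was not called, and Ctss (cathepsin S) as a strongly raised gene without it. Capitals mark TCACGTG or its reverse complement, extended where the palindrome goes on, in the first 3 windows, and in Ctss the reverse complement of GAGGAAGT, a core bound by the myeloid factor PU.1. All are written 5′ to 3′ on the strand of the gene. The Cln3 window lies at chr7:126583187-126583486 on the minus strand, Ctsd at chr7:142387778-142388077 on the minus strand, Mcoln1 at chr8:3500269-3500568 on the plus strand and Ctss at chr3:95526536-95526835 on the plus strand.
Cln3: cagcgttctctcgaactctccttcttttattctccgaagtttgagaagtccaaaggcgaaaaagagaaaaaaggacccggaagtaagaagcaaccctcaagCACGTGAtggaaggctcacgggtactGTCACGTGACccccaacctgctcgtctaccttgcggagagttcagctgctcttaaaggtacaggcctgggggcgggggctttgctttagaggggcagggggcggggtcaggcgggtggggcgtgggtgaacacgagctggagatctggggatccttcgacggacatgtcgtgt
Ctsd: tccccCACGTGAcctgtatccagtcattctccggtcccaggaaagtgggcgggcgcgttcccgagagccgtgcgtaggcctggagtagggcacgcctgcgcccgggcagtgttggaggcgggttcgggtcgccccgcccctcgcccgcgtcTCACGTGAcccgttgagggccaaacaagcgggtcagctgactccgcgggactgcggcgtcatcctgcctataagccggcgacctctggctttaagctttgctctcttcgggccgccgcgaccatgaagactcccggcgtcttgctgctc
Mcoln1: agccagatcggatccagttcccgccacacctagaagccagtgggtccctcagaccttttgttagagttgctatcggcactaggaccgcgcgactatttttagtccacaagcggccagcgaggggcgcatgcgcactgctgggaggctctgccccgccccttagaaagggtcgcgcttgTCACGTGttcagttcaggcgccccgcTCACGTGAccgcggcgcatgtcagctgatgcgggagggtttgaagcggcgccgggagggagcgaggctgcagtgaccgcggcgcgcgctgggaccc
Ctss: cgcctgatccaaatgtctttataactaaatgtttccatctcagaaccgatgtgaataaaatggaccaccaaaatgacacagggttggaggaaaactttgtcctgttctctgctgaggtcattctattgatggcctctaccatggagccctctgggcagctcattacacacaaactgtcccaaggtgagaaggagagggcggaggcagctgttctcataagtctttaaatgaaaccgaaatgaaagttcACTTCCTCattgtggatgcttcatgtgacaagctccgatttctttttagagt

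TCACGTG was found in 12 of the 34 genes (35.3%), against 4.29% of 27025 mouse genes with such windows. These were Arsa, Cln3, Ctsa, Ctsd, Gaa, Gla, Glb1, Lamp1, Lgmn, Mcoln1, Naglu and Sgsh. CACGTG in any context was found in 14 of 34 (41.2%, against 8.09% of genes). The core GAGGAAGT was in 4 of 34 (Ctsc, Ctss, Gla and Gusb, 11.8%, against 3.69% of genes). A match is a description of letters in this window and not of binding. The genes with TCACGTG had a median log2 fold change of 0.75 in isotype control EAE over naïve cord and those without it 1.18. Their ranges overlapped (-0.27 to 2.38 in genes with it and -1.01 to 4.52 in genes without it).

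Most lysosomal genes were higher in EAE cord than in naïve cord. In isotype control cords 27 of 39 were called higher (adjusted p under 0.05 from limma and a fold over 1.5), 1 was called lower and 11 were not called, where 17.2% of all 18194 genes were called higher and 14.9% lower. In anti-RGMa cords 25 were called higher, 1 lower and 13 not, against 13.2% and 8.3% of all genes. These shares of all genes are also those to set beside the counts over naïve cord in each role group and marker list below. Both comparisons share the naïve arrays. The median log2 fold change of the 39 genes was 0.80 in the anti-RGMa group and 0.81 in the isotype control group, with medians over all genes of -0.03 and -0.04. In the isotype control group 26 genes lay wholly above the naïve arrays and 2 (Ctsf and Gaa) wholly below, against 18.3% and 20.4% of all genes.

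**Figure D1:**
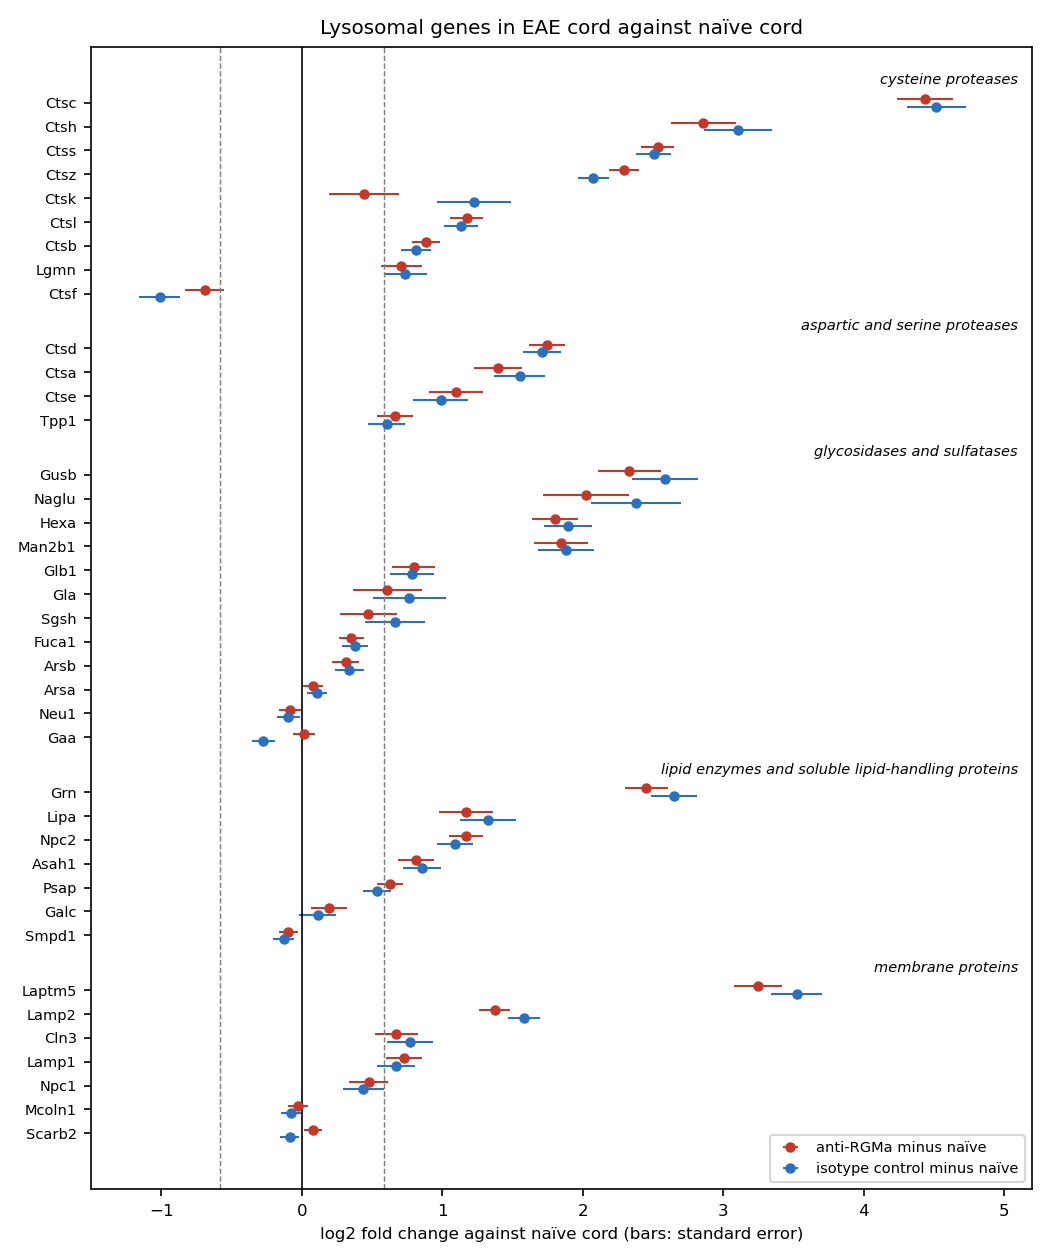
Log2 fold change of each of the 39 lysosomal genes against naïve cord (x axis) in the anti-RGMa group (red, upper point) and the isotype control group (blue, lower point), grouped by role, with bars of 1 standard error and dashed lines at a fold of 1.5 in either direction. Ctsc lies furthest right (4.44 in anti-RGMa and 4.52 in isotype control cords) and Ctsf is the 1 gene left of the lower line in both groups (-0.69 and -1.01).

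Markers of immune cells and of neurons moved in the same arrays. The level of 16 macrophage and monocyte markers, averaged on the log2 scale, lay between 10.45 and 11.52 in anti-RGMa cords and between 10.82 and 11.68 in isotype control cords, against 7.18 to 7.83 in naïve cords. All 16 of these markers were called higher in isotype control and 15 in anti-RGMa cords, as were 6 of 8 homeostatic microglia markers in each. Of 10 neuron markers, 9 were called lower in isotype control and 6 in anti-RGMa cords. The neuron, oligodendrocyte and astrocyte lists averaged at least 11.03, 12.77 and 12.43 in every array. In RNA from whole tissue, a change in the number of cells of a type and a change in RNA per cell cannot be told apart. The part of cell numbers in the results below was not tested.

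The cysteine proteases held the largest rise and the 1 call in the other direction. Of 9 genes, 8 were called higher in isotype control EAE (median log2 fold change 1.23 over the group) and 7 in anti-RGMa EAE, and Ctsf was called lower in each. Ctsc encodes cathepsin C, the dipeptidyl peptidase that activates the granule serine proteases of neutrophils and cytotoxic lymphocytes. Its log2 signal was 12.99, 12.74, 12.83, 13.68, 13.11 and 13.57 in the anti-RGMa mice and 13.61, 13.13, 12.84, 12.81 and 13.79 in the isotype control mice, against 8.99, 8.37, 8.87, 8.73, 8.66 and 8.68 in the naïve mice. The EAE groups overlapped each other and every EAE array lay far above every naïve array. The difference from naïve was 4.44 in anti-RGMa cords (a fold of 21.6, SE 0.20, adjusted p = 2.1e-10) and 4.52 in isotype control cords (a fold of 22.9, SE 0.21, adjusted p = 3.1e-10).

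Ctss encodes cathepsin S, which trims the invariant chain of MHC class II in antigen-presenting cells. Its log2 signal was 14.44, 14.42, 14.55, 14.38, 14.28 and 14.74 in anti-RGMa cords and 14.77, 14.40, 14.13, 14.22 and 14.67 in isotype control cords, against 12.17, 11.95, 11.89, 11.73, 11.75 and 12.11 in naïve cords. No EAE array reached the naïve range. The log2 fold change was 2.53 in anti-RGMa (adjusted p = 3.3e-10) and 2.51 in isotype control cords (adjusted p = 6.5e-10), a fold of 5.79 and 5.68. Ctsh, an aminopeptidase, rose by 2.86 in anti-RGMa and 3.11 in isotype control cords, and Ctsz, a carboxypeptidase, by 2.29 and 2.07. The widely expressed endopeptidases Ctsl (1.17 in anti-RGMa and 1.13 in isotype control cords) and Ctsb (0.88 and 0.81) and the asparaginyl endopeptidase Lgmn (0.71 and 0.74) rose by smaller amounts on their brightest probe sets. Of 4 further Ctsb probe sets, the brightest gave 0.91 in anti-RGMa and 0.80 in isotype control cords and the next brightest 1.34 and 1.43.

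Ctsf, cathepsin F, whose loss in humans causes a neuronal lipofuscinosis, went the other way. Its log2 signal was 9.70, 9.68, 9.83, 9.20, 9.62 and 9.23 in anti-RGMa cords and 8.75, 9.44, 9.48, 9.42 and 9.02 in isotype control cords, against 10.36, 10.23, 10.29, 10.30, 10.11 and 10.10 in naïve cords. All EAE arrays were below all naïve arrays. The log2 fold change was -0.69 in anti-RGMa (SE 0.14, adjusted p = 0.0010) and -1.01 in isotype control cords (SE 0.15, adjusted p = 3.5e-05). The mean of 10 neuron markers was 11.25 to 12.06 in anti-RGMa and 11.03 to 11.82 in isotype control cords, against 12.39 to 12.65 in naïve cords, and its part in the Ctsf result was not tested. The values rest on the brighter of 2 Ctsf probe sets. The other was dim (mean log2 signal 4.43) and gave 2.55 in anti-RGMa and 0.74 in isotype control cords, of which the first was called, and with the mean of both probe sets neither fall was called.

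**Figure D2:**
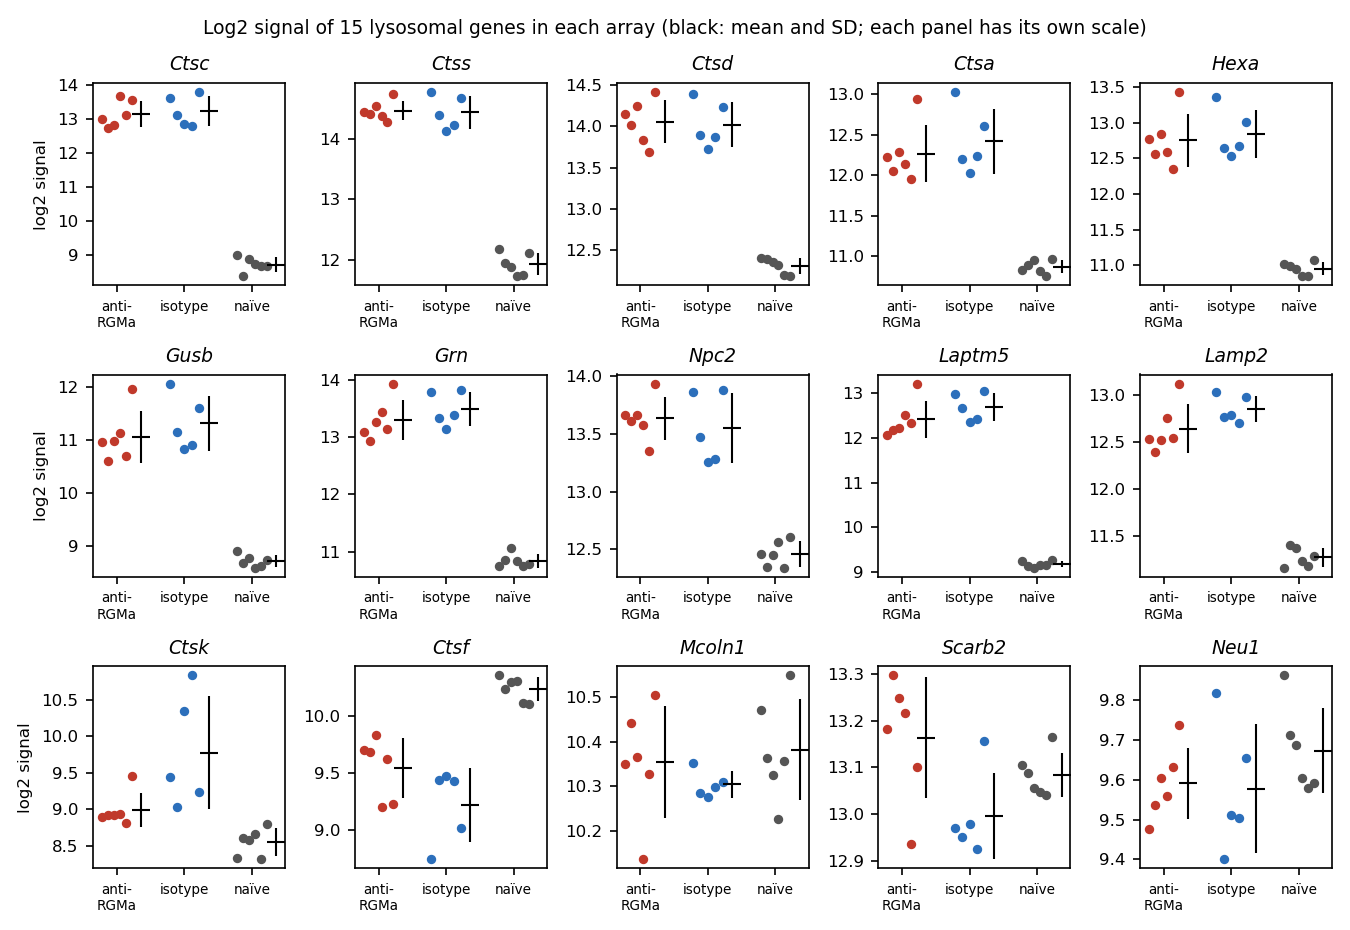
Log2 signal (y axis, a separate scale in each panel) of 15 lysosomal genes in every array of the anti-RGMa (red, 6), isotype control (blue, 5) and naïve (grey, 6) groups, with the mean and SD in black. The EAE arrays of Ctsc, Ctss, Ctsd, Ctsa, Hexa, Gusb, Grn, Npc2, Laptm5, Lamp2 and, narrowly, Ctsk lie above the naïve arrays. Those of Ctsf lie below, and those of Mcoln1, Scarb2 and Neu1 overlap them.

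All 4 aspartic and serine proteases were called higher in each EAE group, with medians of 1.25 in anti-RGMa and 1.27 in isotype control cords. Ctsd encodes cathepsin D, the main aspartic protease of the lysosome. Its log2 signal was 14.15, 14.02, 14.24, 13.84, 13.70 and 14.41 in anti-RGMa cords and 14.39, 13.90, 13.72, 13.87 and 14.23 in isotype control cords, against 12.40, 12.40, 12.36, 12.32, 12.20 and 12.19 in naïve cords. The rise was 1.75 in anti-RGMa (adjusted p = 4.9e-08) and 1.71 in isotype control cords (adjusted p = 8.1e-08). The lowest EAE array (13.70) lay above the highest naïve array (12.40). Ctsa, the carboxypeptidase that also shields β-galactosidase and neuraminidase from breakdown, had 12.23, 12.05, 12.28, 12.13, 11.95 and 12.95 in anti-RGMa cords and 13.03, 12.19, 12.02, 12.23 and 12.61 in isotype control cords, against 10.83, 10.88, 10.96, 10.82, 10.75 and 10.97 in naïve cords. In each EAE group 1 array stood highest, anti-RGMa 6 and isotype control 1, and no EAE array overlapped the naïve arrays. Ctse, an aspartic protease of endosomes in immune cells, rose by 1.10 in anti-RGMa and 0.99 in isotype control cords, and Tpp1, a tripeptidyl peptidase, by 0.66 and 0.60. Both Ctse probe sets were dim (mean log2 signal 7.38 in the chosen one and 7.12 in the other). The other gave 0.30 in anti-RGMa and 0.42 in isotype control cords and was called in neither.

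The glycosidases and sulfatases were split. Of 12 genes, 7 were called higher in isotype control and 5 in anti-RGMa cords, and 0 were called lower. Hexa, the α subunit of β-hexosaminidase, which degrades gangliosides, had 12.78, 12.57, 12.84, 12.58, 12.35 and 13.43 in anti-RGMa cords and 13.36, 12.65, 12.54, 12.68 and 13.02 in isotype control cords, against 11.02, 10.99, 10.95, 10.85, 10.85 and 11.07 in naïve cords. Gusb, β-glucuronidase, had 10.97, 10.61, 10.98, 11.13, 10.70 and 11.96 in anti-RGMa cords and 12.06, 11.16, 10.84, 10.91 and 11.60 in isotype control cords, against 8.91, 8.68, 8.79, 8.60, 8.63 and 8.73 in naïve cords. Both lay wholly above naïve, and anti-RGMa 6 and isotype control 1 were again the top arrays of their groups. The log2 fold change of Hexa was 1.80 in anti-RGMa (adjusted p = 5.0e-07) and 1.89 in isotype control cords (adjusted p = 3.7e-07), and that of Gusb 2.33 (adjusted p = 9.4e-07) and 2.59 (adjusted p = 3.7e-07). Naglu, which acts on heparan sulfate, rose by 2.02 in anti-RGMa and 2.38 in isotype control cords, and Man2b1, the lysosomal α-mannosidase, by 1.85 and 1.88.

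Gla (α-galactosidase A) and Sgsh (another heparan sulfate enzyme) were called in isotype control cords only. Gla had 0.61 in anti-RGMa (adjusted p = 0.0603) and 0.77 in isotype control cords (adjusted p = 0.0213), and Sgsh 0.47 (adjusted p = 0.0727) and 0.66 (adjusted p = 0.0155). The difference between the EAE groups itself was -0.16 for Gla (unadjusted p = 0.557 from limma) and -0.19 for Sgsh (unadjusted p = 0.389). The enzymes of sulfatide and glycogen breakdown were not called in either EAE group. Arsa, the sulfatase that acts on the myelin lipid sulfatide, had 0.08 in anti-RGMa and 0.11 in isotype control cords, and Gaa, the acid α-glucosidase of glycogen, 0.01 and -0.27, the second with an adjusted p of 0.0109 but under a fold of 1.5. Neu1, a sialidase, had 9.48, 9.54, 9.60, 9.56, 9.63 and 9.74 in anti-RGMa cords and 9.82, 9.40, 9.51, 9.50 and 9.66 in isotype control cords, against 9.86, 9.71, 9.69, 9.61, 9.58 and 9.59 in naïve cords. The groups overlapped, and the log2 fold change was -0.08 in anti-RGMa and -0.10 in isotype control cords.

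Among the lipid enzymes and soluble lipid-handling proteins, 5 of 7 were called higher in anti-RGMa and 4 in isotype control cords. Grn encodes progranulin, a secreted protein delivered to lysosomes. Its log2 signal was 13.09, 12.92, 13.25, 13.43, 13.14 and 13.93 in anti-RGMa cords and 13.79, 13.32, 13.14, 13.38 and 13.81 in isotype control cords, against 10.75, 10.85, 11.06, 10.84, 10.76 and 10.79 in naïve cords. It was 5.48-fold higher in anti-RGMa (log2 fold change 2.45, adjusted p = 9.0e-09) and 6.27-fold higher in isotype control cords (2.65, adjusted p = 5.6e-09). Npc2, which hands cholesterol to the membrane protein NPC1, had 13.66, 13.61, 13.66, 13.57, 13.35 and 13.93 in anti-RGMa cords and 13.86, 13.48, 13.25, 13.28 and 13.88 in isotype control cords, against 12.46, 12.34, 12.45, 12.56, 12.34 and 12.61 in naïve cords. Its EAE arrays did not overlap naïve, and its rise was 1.17 in anti-RGMa (adjusted p = 1.9e-06) and 1.09 in isotype control cords (adjusted p = 4.6e-06).

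The other genes of this group differed. Asah1, acid ceramidase, rose by 0.81 in anti-RGMa and 0.86 in isotype control cords, and Lipa, which cleaves cholesteryl esters and triglycerides, by 1.17 and 1.33. Psap, the precursor of the saposins that help sphingolipid hydrolases, had 0.63 in anti-RGMa cords (called) and 0.53 in isotype control cords (under the fold threshold, adjusted p = 0.000315). Galc, which degrades the myelin lipid galactosylceramide, had 0.19 in anti-RGMa and 0.11 in isotype control cords, and Smpd1, acid sphingomyelinase, -0.10 and -0.13, and neither was called.

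Of 7 membrane proteins measured, 4 were called higher in each EAE group. Laptm5, a transmembrane protein of leukocyte lysosomes, had 12.07, 12.19, 12.22, 12.51, 12.34 and 13.22 in anti-RGMa cords and 12.99, 12.67, 12.37, 12.42 and 13.05 in isotype control cords, against 9.26, 9.13, 9.10, 9.15, 9.16 and 9.26 in naïve cords. This was the second largest rise of the 39 genes, with a fold of 9.51 in anti-RGMa (log2 fold change 3.25, adjusted p = 1.3e-09) and 11.5 in isotype control cords (3.52, adjusted p = 8.1e-10). Lamp2, a main glycoprotein of the limiting membrane with a part in autophagy, had 12.53, 12.40, 12.52, 12.75, 12.54 and 13.12 in anti-RGMa cords and 13.03, 12.77, 12.79, 12.70 and 12.98 in isotype control cords, against 11.16, 11.40, 11.37, 11.23, 11.18 and 11.29 in naïve cords. Its log2 fold change was 1.37 in anti-RGMa (adjusted p = 1.0e-07) and 1.58 in isotype control cords (adjusted p = 2.9e-08), and that of its relative Lamp1 0.72 and 0.67. Cln3 rose by 0.67 in anti-RGMa and 0.77 in isotype control cords. A second, dimmer Cln3 probe set (mean log2 signal 7.81) gave 0.23 and 0.51 and was called in neither.

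The remaining membrane proteins were not called. Mcoln1 had 10.35, 10.44, 10.37, 10.14, 10.33 and 10.50 in anti-RGMa cords and 10.35, 10.29, 10.28, 10.30 and 10.31 in isotype control cords, against 10.47, 10.36, 10.32, 10.23, 10.36 and 10.55 in naïve cords. Scarb2, the receptor that carries glucocerebrosidase to lysosomes, had 13.18, 13.30, 13.25, 13.22, 12.94 and 13.10 in anti-RGMa cords and 12.97, 12.95, 12.98, 12.92 and 13.16 in isotype control cords, against 13.11, 13.09, 13.06, 13.05, 13.04 and 13.16 in naïve cords. The groups overlapped in both genes. The difference from naïve was -0.03 in anti-RGMa and -0.08 in isotype control cords for Mcoln1, and 0.08 and -0.09 for Scarb2. Other probe sets of these genes gave other values, since a second probe set was called lower in isotype control cords for Mcoln1 (-0.74) and higher for Scarb2 (0.59). Npc1, the cholesterol transporter, had 0.47 in anti-RGMa and 0.44 in isotype control cords, below the fold threshold.

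Between the antibody groups 1 of the lysosomal genes was called. Past a fold of 1.5 with an unadjusted p under 0.05, 0 of 39 genes were called higher and 1, Ctsk, lower in anti-RGMa than in isotype control cords, against 1.22% and 2.72% of all genes. With limma's adjusted p under 0.05, 0 of 39 were higher or lower, against 0.0055% and 0% of all genes. The antibody groups overlapped in all 39 genes, where 0.242% of all genes lay wholly higher and 0.566% wholly lower in anti-RGMa cords. At an unadjusted p under 0.05 alone, 3 were higher (Ctsf, Gaa and Scarb2) and 1 lower, against 9.01% and 6.77% of all genes. The median log2 fold change of the 39 genes was -0.03, with 19 above 0 and 20 below, and the median over all genes was 0.01. For 30 of the 39 genes the 95% interval of the difference lay within a fold of 1.5 in either direction. The interval of Ctsc was -0.53 to 0.36, that of Ctss -0.24 to 0.30 and that of Ctsd -0.25 to 0.32. A second, dimmer Ctsc probe set (mean log2 signal 7.75) was called lower in anti-RGMa than in isotype control cords, with a log2 fold change of -0.62 (unadjusted p = 0.0424, adjusted p = 0.359 from limma over all probe sets). Naglu, with -1.03 to 0.33, Laptm5, with -0.66 to 0.11, and Gusb, with -0.76 to 0.25, had intervals that reached past a fold of 1.5 on the lower side.

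**Figure D3:**
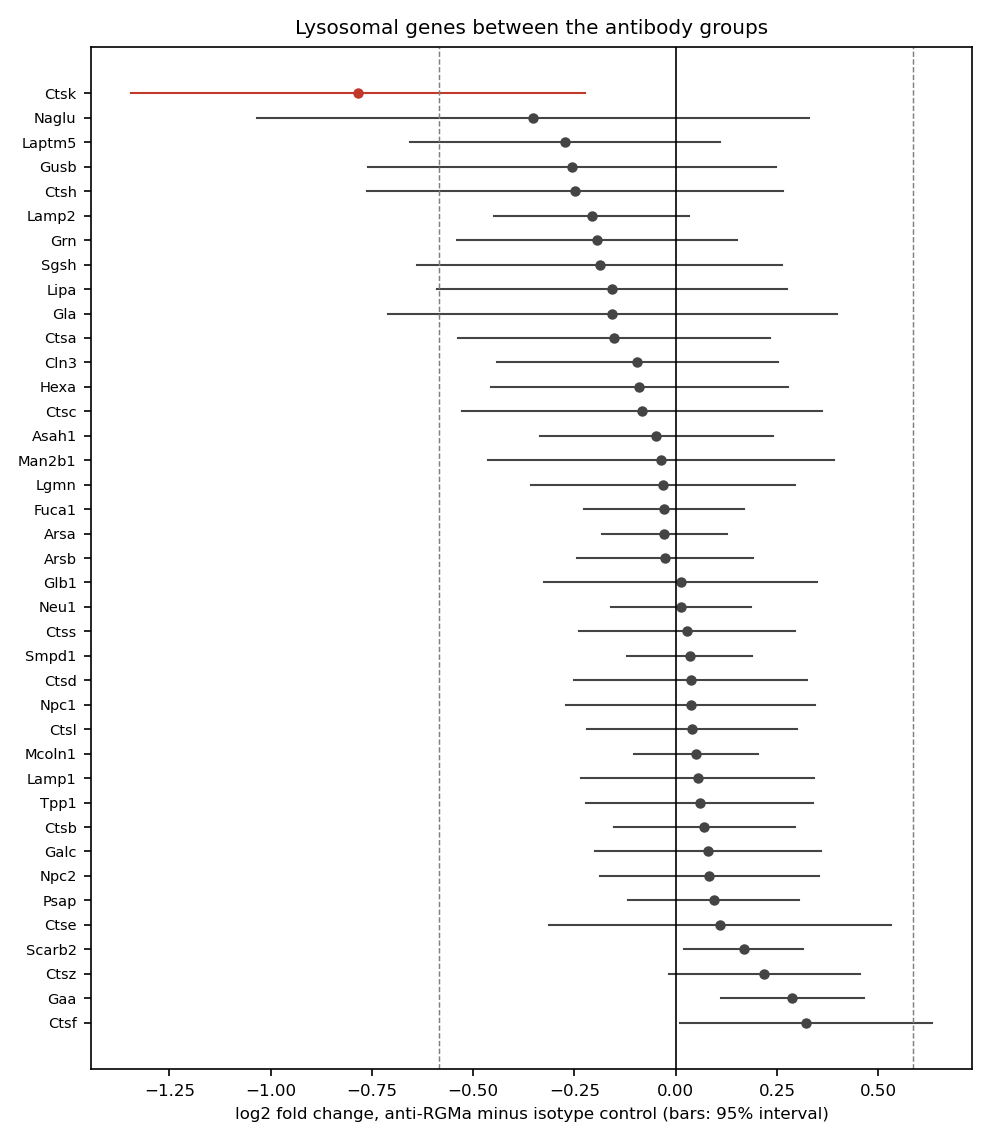
Log2 fold change of the 39 lysosomal genes in anti-RGMa over isotype control cords (x axis), ordered by size, with 95% intervals and dashed lines at a fold of 1.5 in either direction. Ctsk (red, -0.78) is the 1 gene past the lower line with an interval below 0, and Ctsf (0.32) has the highest value.

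Ctsk encodes cathepsin K, the collagen-degrading protease of osteoclasts, which activated fibroblasts also make. Its log2 signal was 8.90, 8.93, 8.93, 8.94, 8.82 and 9.45 in anti-RGMa cords and 9.44, 9.03, 10.34, 10.84 and 9.23 in isotype control cords, against 8.34, 8.61, 8.59, 8.66, 8.32 and 8.80 in naïve cords. Isotype control arrays 3 and 4 were the highest. The other 3 isotype control arrays lay above the anti-RGMa arrays from 8.82 to 8.94 and below anti-RGMa array 6 (9.45). The log2 fold change was -0.78 (a fold of 1.72, SE 0.26, 95% interval -1.34 to -0.22, unadjusted p = 0.00925 and adjusted p = 0.225 from limma), and 6 of 6 anti-RGMa arrays were below the isotype control mean. Over naïve cord it was 0.44 in anti-RGMa (adjusted p = 0.179) and 1.23 in isotype control cords (adjusted p = 0.000992). The anti-RGMa arrays (lowest 8.82) still all lay above the naïve arrays (highest 8.80), as did those of 2525 of all 18194 genes.

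Fibroblast markers were also highest in isotype control arrays 3 and 4. The mean of 6 fibroblast markers was 12.78 and 13.25 in isotype control arrays 3 and 4, against 11.02 to 11.87 in the other isotype control arrays, 9.74 to 11.37 in anti-RGMa and 9.33 to 10.47 in naïve arrays. Of these 6 markers, 5 were called lower in anti-RGMa than in isotype control cords. Isotype control array 4 was also highest in 8 skeletal muscle markers (13.32, against 4.65 to 9.58 in the other isotype control and 4.99 to 7.58 in anti-RGMa arrays). Without isotype control array 4 the Ctsk difference was -0.52 and no longer passed the fold threshold, and with the fibroblast mean as a covariate, an alternative chosen after seeing the data, it was -0.09 (unadjusted p = 0.760). That mean itself differed between the antibody groups. With the macrophage mean as a covariate the difference was -0.88 (unadjusted p = 0.0379) and the call was kept. The part of fibroblasts and muscle in the Ctsk result was not tested. Among 6 bone and osteoclast markers the array means were 5.00 to 5.77 in anti-RGMa and 5.14 to 5.79 in isotype control cords, against 4.73 to 5.25 in naïve cords. Its members did not move as 1, since the dim Ocstamp was called lower in anti-RGMa than in isotype control cords (-1.47, unadjusted p = 0.0353) and the dim Calcr higher (0.85, unadjusted p = 0.0303).

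The 3 genes higher at an unadjusted p under 0.05 had small differences. Ctsf had 0.32 (95% interval 0.01 to 0.63, unadjusted p = 0.0433), Gaa 0.29 (0.11 to 0.46, unadjusted p = 0.00329) and Scarb2 0.17 (0.02 to 0.32, unadjusted p = 0.0280), with adjusted p of 0.310, 0.212 and 0.282. The antibody groups overlapped in all 3. A second Scarb2 probe set (mean log2 signal 11.27) gave -0.01 between the antibody groups (unadjusted p = 0.949 from limma over all probe sets). The second probe set of Gaa gave 0.28 and the dim one of Ctsf 1.81. The difference was above 0 in 10 of 10 neuron markers (median 0.44, 1 called) and in 6 of 7 oligodendrocyte markers (median 0.23, 0 called). It was also above 0 in 6 of 7 astrocyte markers (median 0.17, 0 called). Of these lists, 5, 4 and 3 markers were higher at an unadjusted p under 0.05 (limma). Among all 18194 genes the difference was above 0 in 9443, 9.01% were higher at an unadjusted p under 0.05 and 1.22% were called higher. The part of these cell types in the values of Ctsf, Gaa and Scarb2 was not tested.

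Within each EAE group the lysosomal genes varied together. Anti-RGMa array 6 was the highest of its group in 29 of the 39 genes and isotype control array 1 in 27. The mean over the 39 genes was 11.96 in anti-RGMa array 6, against 11.38 to 11.61 in the other 5 anti-RGMa arrays, and 11.95 in isotype control array 1 and 11.75 in array 5, against 11.43 to 11.52 in the other 3 isotype control arrays. The naïve arrays ran from 10.37 to 10.53. Macrophage markers were highest in the same EAE arrays, at 11.52 in anti-RGMa array 6 and 11.68 and 11.52 in isotype control arrays 1 and 5, against 10.45 to 10.94 and 10.82 to 11.04 in the other arrays of these groups. The antibody groups had nearly equal means of the 39 genes, 11.59 ± 0.20 in anti-RGMa (SD, n = 6) and 11.63 ± 0.22 in isotype control cords (SD, n = 5), against 10.48 ± 0.06 in naïve cords (SD, n = 6).

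**Figure D4:**
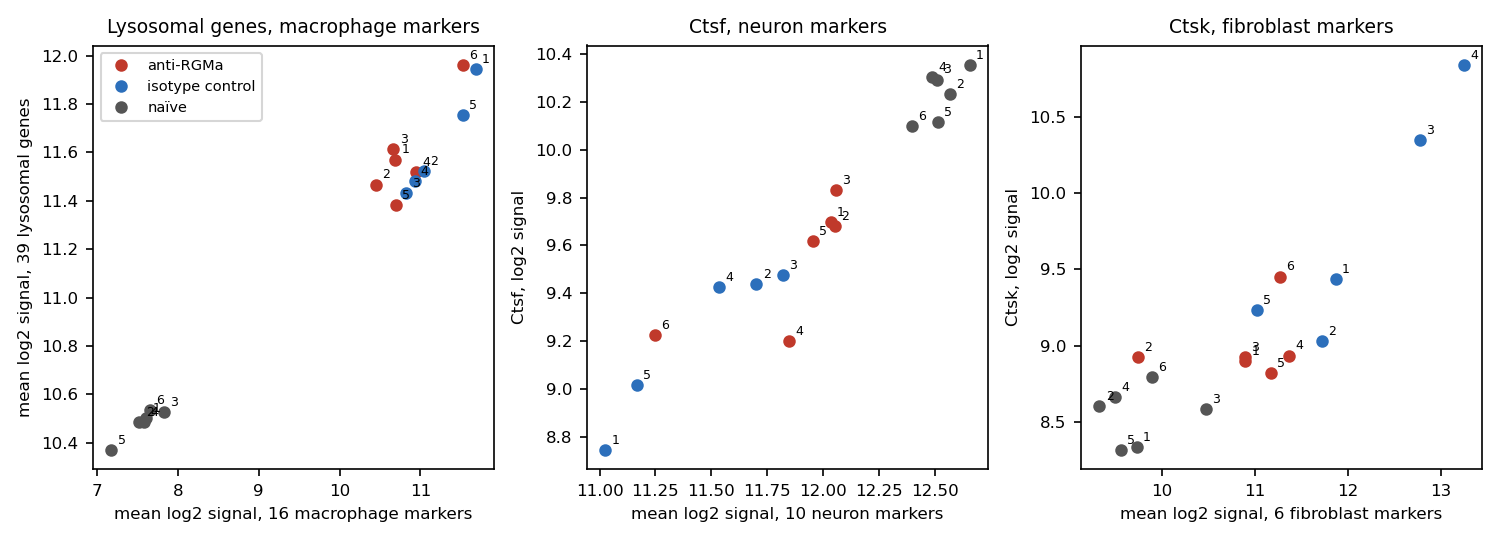
Mean log2 signal of the 39 lysosomal genes against that of 16 macrophage markers (left), log2 signal of Ctsf against the mean of 10 neuron markers (middle) and of Ctsk against the mean of 6 fibroblast markers (right), 1 point per array with its replicate number, in anti-RGMa (red), isotype control (blue) and naïve (grey) mice. Anti-RGMa 6 and isotype control 1 and 5 lie highest on the left, and isotype control 3 and 4 highest on the right.

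The most alike genes were found from each array's deviation from its group mean over the 17 arrays. The 3 highest of 741 pairs were Ctsb with Ctsd (Pearson r 0.98, Spearman rho 0.98), Ctsa with Hexa (0.98 and 0.97) and Ctsa with Man2b1 (0.98 and 0.92). Without the arrays isotype control 1 and anti-RGMa 6 these r were 0.97, 0.93 and 0.93 over 15 arrays. The median of all pairs was 0.51 and the lowest -0.78. These values are descriptions of pairs picked for being highest, the arrays share tissue composition, and no test was run.

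Of the 39 genes, 28 had more than 1 probe set. In a fit over all probe sets, 36 of the 49 further probe sets had the sign of the chosen one in isotype control over naïve cord, 25 were called higher and 3 lower (of Arsb, Galc and Mcoln1). Further probe sets of strongly raised genes gave 3.41 and 2.95 for Ctsc, 3.18 and 2.76 for Ctsz, and 3.11 and 3.01 for Grn. Other raised genes had a further probe set with a much smaller rise. It was 1.15 for Gusb (2.59 on the chosen one) and 0.65 for Man2b1 (1.88), both called. For Ctsa it was 0.22 (1.55 on the chosen one), on a dim probe set (mean log2 signal 6.89) that was not called. Of 4 further Laptm5 probe sets, 2 gave 3.33 and 3.20, and the other 2, which were dim, gave -0.02 and -0.23. In anti-RGMa over isotype control cords 29 of the 49 had the sign of the chosen one, 0 were called higher and 1, of Ctsc, lower. No share over all probe sets was computed to set beside these counts, and the shares of all genes given above rest on 1 probe set per gene. For Ctsk a single probe set was present.

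Lysosomal genes outside the list were counted in 6 further groups with 96 genes measured. In isotype control over naïve cord 32 of the 96 were called higher and 13 lower, against 17.2% and 14.9% of all genes, so that lower calls were about as frequent as among all genes. In anti-RGMa over naïve cord 30 were called higher and 3 lower, against 13.2% and 8.3%. In anti-RGMa over isotype control cords 0 were called in either direction, and 15 were higher and 3 lower at an unadjusted p under 0.05 (limma), against 9.01% and 6.77% of all genes.

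Other acid hydrolases had the highest median of these groups in both comparisons, with 12 of 21 called higher and 1 lower in isotype control cords (median 0.92) and 11 higher and 0 lower in anti-RGMa cords (median 0.83). Acp5, the tartrate-resistant acid phosphatase of osteoclasts and macrophages, rose by 6.34 in anti-RGMa and 6.84 in isotype control cords, from a naïve log2 signal of 2.39 to 5.22, so dim that the size of its fold is uncertain. Pld4, an exonuclease of myeloid lysosomes, rose by 3.12 in anti-RGMa and 3.36 in isotype control cords, and Pla2g15, a lysosomal phospholipase, by 1.83 and 2.03. Ids, which acts on heparan and dermatan sulfate, had -0.47 in anti-RGMa and was called lower in isotype control cords (-0.72). Between the antibody groups Ppt2, a thioesterase, had -0.42 (unadjusted p = 0.00267, adjusted p = 0.209) and Scpep1, a serine carboxypeptidase, -0.54 (unadjusted p = 0.0187), each under a fold of 1.5.

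Of 25 other lysosomal membrane proteins, 8 were called higher and 2 lower in isotype control cords, against 17.2% and 14.9% of all genes, and 8 higher and 1 lower in anti-RGMa cords, against 13.2% and 8.3%. Slc15a3, a peptide and histidine transporter, rose by 5.73 in anti-RGMa and 6.42 in isotype control cords, from a dim naïve signal of 3.21 to 5.57 that leaves its fold uncertain. Slc11a1, the phagosomal metal transporter NRAMP1, had 2.82 in anti-RGMa and 2.92 in isotype control cords, and the macrophage glycoprotein Cd68 3.82 and 3.99. The others called higher were the cation channels Mcoln2 (2.47 in anti-RGMa and 2.73 in isotype control cords, from a dim naïve signal) and Tpcn2 (0.88 and 1.31), the chloride-proton exchanger Clcn7 (0.94 and 0.97), the nucleoside transporter Slc29a3 (1.01 and 1.05) and Sidt2 (0.98 and 1.27). Lamp5, the neuronal member of the LAMP family, fell by 0.76 in anti-RGMa and by 1.33 in isotype control cords. Between the antibody groups Abca2, a lipid transporter of oligodendrocyte lysosomes, had 0.32 (unadjusted p = 0.0125) and Laptm4b 0.22 (unadjusted p = 0.0173).

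The V-ATPase subunits did not rise together. Of 20 subunits, 4 were called higher and 7 lower in isotype control cords (median -0.31), and 4 higher and 2 lower in anti-RGMa cords (median -0.14), where 17.2% and 14.9% of all genes were called in isotype control and 13.2% and 8.3% in anti-RGMa cords. Tcirg1, the a3 subunit of osteoclasts and macrophages, had 10.09, 9.92, 10.38, 10.36, 10.13 and 11.07 in anti-RGMa cords and 11.00, 10.45, 10.19, 10.42 and 10.88 in isotype control cords, against 8.32, 8.33, 8.30, 8.42, 8.26 and 8.64 in naïve cords. Its rise was 1.95 in anti-RGMa and 2.21 in isotype control cords, and Atp6v0d2, the d subunit isoform of osteoclasts, rose by 3.75 and 4.38 from a dim naïve signal. Atp6v1g2, the neuronal G subunit, had 11.49, 11.63, 11.54, 11.26, 11.64 and 10.40 in anti-RGMa cords and 10.22, 11.18, 11.22, 11.05 and 10.55 in isotype control cords, against 12.40, 12.30, 12.31, 12.44, 12.38 and 12.30 in naïve cords. It fell by 1.03 in anti-RGMa and by 1.51 in isotype control cords, and Atp6v1h by 0.69 and 1.05.

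The 2 V-ATPase genes lay opposite each other across the arrays, since isotype control 1 and 5 and anti-RGMa 6 were the highest arrays of their groups in Tcirg1 and the lowest in Atp6v1g2. Atp6v0a1 (-0.52 in anti-RGMa and -0.75 in isotype control cords), Atp6v0e2 (-0.58 and -1.08), Atp6v1b2 (-0.54 and -0.89), Atp6v1c1 (-0.39 and -0.63) and Atp6v1e1 (-0.36 and -0.63) were called lower in isotype control cords and not called in anti-RGMa cords. The catalytic subunit Atp6v1a (-0.41 and -0.55) and Atp6v1d (-0.30 and -0.34) were under the fold threshold in both. Between the antibody groups 7 of the 20 subunits were higher and 0 lower at an unadjusted p under 0.05 (limma), against 9.01% and 6.77% of all genes. Atp6v0e2 (0.50, unadjusted p = 0.00548) and Atp6v1e1 (0.28, unadjusted p = 0.00578) led, and 0 subunits were called.

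**Figure D5:**
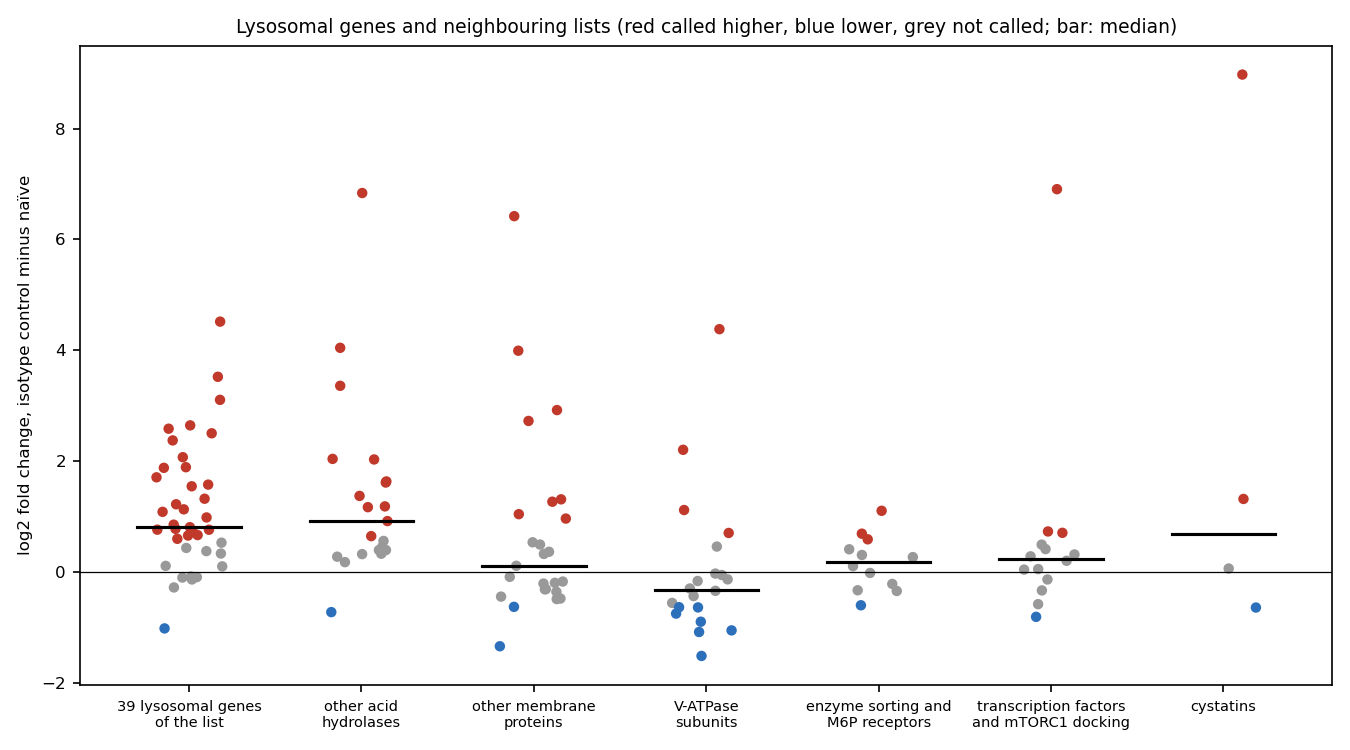
Log2 fold change in isotype control over naïve cord (y axis) for each gene of the list of 39 and of the 6 further lysosomal groups, red where called higher, blue where called lower and grey where not called, with a bar at each median. The medians of the list (0.81) and of the other acid hydrolases (0.92) lie above 0 and that of the V-ATPase subunits (-0.31) below.

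Of 12 genes of enzyme sorting, 3 were called higher and 1 lower in isotype control cords, against 17.2% and 14.9% of all genes, and 2 higher and 0 lower in anti-RGMa cords, against 13.2% and 8.3%. The receptors that carry tagged enzymes, Igf2r (0.74 in anti-RGMa and 1.11 in isotype control cords) and M6pr (0.48 and 0.59), were among them, M6pr in isotype control cords (its difference between the antibody groups was -0.11, unadjusted p = 0.336). Gnptg, a subunit of the enzyme that makes the tag, had -0.29 in anti-RGMa and -0.60 in isotype control cords, and the second was called. Between the antibody groups Sort1, the receptor sortilin, had 0.28 (unadjusted p = 0.00818) and Gnptg 0.30 (unadjusted p = 0.0146).

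Of 14 genes for lysosomal transcription factors and the docking of mTORC1, 3 were called higher in each EAE group, against 17.2% of all genes in isotype control and 13.2% in anti-RGMa cords. In isotype control cords 1 was called lower and in anti-RGMa cords 0, against 14.9% and 8.3% of all genes. It was Rraga, a small GTPase that recruits mTORC1 (-0.57 in anti-RGMa and -0.80 in isotype control cords). The 3 called higher were TFEB relatives. Tfe3 rose by 0.70 in anti-RGMa and 0.71 in isotype control cords, Mitf by 0.68 and 0.74, and Tfec, which is found mainly in myeloid cells, by 6.23 and 6.91 from a naïve signal of -0.19 to 2.91 on the log2 scale, so dim that the size of its fold is uncertain. Tfeb itself had 0.29 in anti-RGMa and 0.42 in isotype control cords and was not called.

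Cystatins, which inhibit cysteine cathepsins, included the largest rise of these lists. Of 4 genes, 2 were called higher and 1, Cst6, lower in isotype control cords, against 17.2% and 14.9% of all genes. In anti-RGMa cords 2 were called higher and 0 lower, against 13.2% and 8.3%. Cst6 had -0.55 in anti-RGMa and -0.64 in isotype control cords. Cst7, the leukocyte cystatin F, whose known target is cathepsin C, had 11.40, 11.31, 11.34, 11.41, 11.31 and 12.35 in anti-RGMa cords and 11.75, 11.19, 10.71, 10.60 and 12.00 in isotype control cords, against 2.35, 1.79, 2.55, 1.42, 2.86 and 2.69 in naïve cords. Anti-RGMa 6 and isotype control 5 and 1 were the highest arrays, and naïve signals were at a level where folds are uncertain. Cstb, an intracellular inhibitor of cathepsins, rose by 1.21 in anti-RGMa and 1.32 in isotype control cords. Cst3, the abundant secreted cystatin C, had 0.29 in anti-RGMa and 0.07 in isotype control cords over naïve cord, and 0.22 between the antibody groups (unadjusted p = 0.0210).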

How the data were processed

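RNA of 17 spinal cord samples was hybridised to 1-colour Affymetrix mouse arrays. The authors computed a signal intensity per probe set with MAS5.0 and global scaling, and these linear intensities, deposited without pooling, were used here. Processing notes of the submitters list affy and MAS5, without versions, and the target of the scaling was not found in the sources.

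Of 45101 probe sets, 34958 were annotated to 1 gene and the others were left out. The log2 of the signals, with neither offset nor filter, was analysed in limma 3.58.1 under R 4.3.3 by lmFit and eBayes in a model of 3 groups, with Benjamini-Hochberg adjustment over 18194 genes, and the fit was tested on simulated data. The number of arrays limits precision, and without detection calls the folds of dim genes are uncertain. Between the antibody groups the study's own rule was used (1.5-fold, unadjusted p).

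The genes and lists were chosen with earlier results of these data known. Named genes followed a rule: the 2 members of each role group with the smallest p in isotype control over naïve cord, members called between the antibody groups or lower in EAE, the 3 flattest members, and the leading genes of each further list. Other members, list genes and probe sets were named after their values were seen. Alternatives covered the scaling, offset, dim filter, probe set rule, variance model, array weights, replicate block, marker covariates and each array left out. Plots were made in matplotlib 3.10.9 (Python 3.11.15).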

Additional observations from a re-analysis of the deposited data

Results flagged for a closer look

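Dixon's test was run for each of the 39 genes in each of the 3 groups, and 12 of these 117 tests marked an array as standing apart, where chance marks about 1 in 20. The tests are not independent, since the genes vary together across arrays, so the count cannot be read as an excess over that share. Anti-RGMa array 6 was the high array in 6 of the 12 tests, on the log2 scale. Ctsh had 13.23 there, against 11.94 to 12.36 in the other anti-RGMa arrays, Ctsk 9.45 (8.82 to 8.94), Ctsa 12.95 (11.95 to 12.28), Man2b1 12.78 (11.80 to 12.09), Asah1 12.60 (11.96 to 12.11) and Cln3 9.84 (8.85 to 9.19). In the isotype control group Ctsl was high in array 1 (13.65, against 13.20 to 13.31) and Scarb2 in array 5 (13.16, against 12.92 to 12.98). In naïve arrays Gaa (11.53, against 11.24 to 11.33) and Npc1 (10.23, against 9.66 to 9.83) were high in array 6 and Grn (11.06, against 10.75 to 10.85) in array 3, and Lipa was low in array 2 (8.73, against 9.04 to 9.21).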

How the results depend on the processing

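The genes called higher over naïve cord numbered 22 to 26 in anti-RGMa and 24 to 28 in isotype control cords when each array was left out in turn, and 20 to 26 and 20 to 27 under the other alternatives, with Ctsf the gene called lower in each case except with the mean of probe sets, which left 0 lower in either comparison. With that mean Ctsf had 0.93 in anti-RGMa over naïve, -0.14 in isotype control over naïve and 1.07 between the antibody groups, where it became the 1 gene called higher, and 5 genes of the further lists were lower in anti-RGMa over naïve cord. Without anti-RGMa array 6, Tpp1, Psap and Cln3 were not called in anti-RGMa over naïve cord, without isotype control array 1, Tpp1, Gla and Sgsh were not called in isotype control over naïve cord, and without array 5, Tpp1 and Gla were not. Sgsh was also lost without naïve array 5, Psap was gained without isotype control array 3, and in anti-RGMa over naïve cord Gla was gained without anti-RGMa array 5 or isotype control array 1 or 4 and Sgsh without naïve array 4. Leaving out single arrays gave 0 to 2 genes lower in anti-RGMa than in isotype control cords, 2 without anti-RGMa array 6 (Ctsk and Naglu) and 0 without isotype control array 4, with 0 higher each time. The Ctsk call was kept with the macrophage covariate (-0.88) and was also lost with the skeletal muscle covariate (-0.46), without isotype control arrays 3 and 4 (-0.24) and, in alternatives chosen after seeing the data, with the fibroblast covariate (-0.09) and without isotype control arrays 3 and 4 and anti-RGMa array 6 (-0.33), with 0 genes lower in the first 3 of these. The last of them removes the isotype control arrays lowest in the 39 genes and the highest anti-RGMa array, and there 5 other genes were called lower (Ctsh, Gla, Gusb, Naglu and Laptm5). Without isotype control array 1 and anti-RGMa array 6, the highest of each group, 1 gene was lower, Ctsk (-0.96). The cause of these changes was not tested.

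Scaling moved the centre of all genes. The median over all genes was -0.22 in anti-RGMa and -0.27 in isotype control over naïve cord with arrays centred on the median, and -0.16 and -0.18 with quantile normalization, and the median of the 39 genes was then 0.60 and 0.59, or 0.74 and 0.81. The share of called genes that were higher was 61.4% in anti-RGMa and 53.6% in isotype control cords, 38.1% and 34.9% when centred, and 44.8% and 40.7% with quantiles. When centred, Lgmn, Tpp1, Psap, Lamp1 and Cln3 were not called in anti-RGMa cords, nor Lgmn, Tpp1, Gla, Glb1, Sgsh, Lamp1 and Cln3 in isotype control cords. Deviations of the 16 pairs of arrays with the same replicate number correlated between -0.06 and 0.07 over all genes. The sources do not say that the numbers pair samples, and a low correlation over all genes cannot exclude a shared batch. With the replicate block the calls of the 39 genes were unchanged (Ctsk -0.85).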
